A study of Mus musculus with 6 samples.

Results

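The genes of coenzyme A synthesis were examined in inguinal white adipose tissue (IWAT), the subcutaneous fat depot of the mouse groin. They were picked by name from the deposited gene table and are the pantothenate kinase family (*Pank1*, *Pank2*, *Pank3*, and *Pank4*) with the later enzymes of the pathway (*Ppcs*, *Ppcdc*, and *Coasy*), 7 of 55491 genes listed. All 7 had counts in every library. The group was proposed with the genotype comparison of these libraries known, above all the difference of *Pank1*. The genotype values of the 7 genes are therefore given as a description, and nothing is read from their test results. The study asked how a nonsense variant of *Ebf2*, a transcription factor of the early B cell factor family, alters fat tissue. Bulk RNA-seq was done on IWAT of 4-week-old male C57BL/6J mice on regular chow, 3 wild-type (*Ebf2*+/+) and 3 heterozygous knock-in mice (p.E165X, *Ebf2* E165X/+), with 1 library each. The knock-in is carried in every tissue, and no litter or batch is given. Library totals ran from 106820505 to 135039488 counts, with between 27154 and 28120 genes detected in each.

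Coenzyme A carries acyl groups in fatty acid synthesis, fatty acid oxidation, and the citric acid cycle, and cells make it from pantothenate, vitamin B5. Pantothenate kinases catalyze the first, rate-controlling phosphorylation and are inhibited by acyl-CoA. *Ppcs* then joins cysteine to the product, *Ppcdc* removes a carboxyl group to give phosphopantetheine, and the bifunctional *Coasy* adds the nucleotide and completes the molecule. *Pank4* is a family member without pantothenate kinase activity that acts as a phosphatase in the pathway.

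The kinases *Pank1*, *Pank2*, and *Pank3* each hold a microRNA gene of the miR-103/107 family in an intron. In GENCODE M21 (GRCm38), *Mir107* lies in intron 5 of *Pank1*, *Mir103-2* in intron 5 of *Pank2*, and *Mir103-1* in intron 5 of *Pank3*, each on the strand of its host and in a host transcript of 7 exons. The mature sequences from RefSeq (GRCm38.p6) are printed because they show the kinship of the 3 loci. Capitals mark the seed, bases 2 to 8 from the 5′ end, and lines are grouped by shared seed.
mmu-miR-107-3p (Pank1, chr19:34820700-34820722, minus strand): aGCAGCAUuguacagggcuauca
mmu-miR-103-3p (Pank2, chr2:131288103-131288125, plus strand, and Pank3, chr11:35782447-35782469, plus strand): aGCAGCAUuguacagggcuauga
mmu-miR-107-5p (Pank1): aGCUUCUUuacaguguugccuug
mmu-miR-103-2-5p (Pank2): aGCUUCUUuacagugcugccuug
mmu-miR-103-1-5p (Pank3): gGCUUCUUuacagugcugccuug

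The 3p arms share 1 seed, and miR-107-3p differs from miR-103-3p by a single base (G22C, positions from the 5′ end, the base of miR-103-3p first). All 3 microRNA genes were listed at 0 counts in all 6 libraries, where 3 counts would be 0.0222 to 0.0281 CPM. CPM is the count relative to the library total, after TMM scaling of the totals. Libraries of polyadenylated or long RNA do not capture mature microRNAs of this length, so the values below are those of the host transcripts alone. Limits and intervals of this kind cover counting error only.

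*Ebf2* (ENSMUSG00000022053), the edited gene, was measured first. It was at 38.3, 41.3, and 37.2 CPM in the *Ebf2*+/+ libraries and at 22.8, 22.9, and 21.1 CPM in the *Ebf2* E165X/+ libraries. The genotypes did not overlap, with the heterozygous libraries lower. The log2 fold change was −0.81 (SE 0.076, adjusted P = 0.0596 by edgeR's quasi-likelihood test). A negative log2 fold change means a lower level in *Ebf2* E165X/+ mice. Its standard error (SE) is its absolute value divided by the square root of the quasi-likelihood F statistic from edgeR.

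*Pank1* (ENSMUSG00000033610, chr19:34806940-34879455, minus strand) differed most among the 7 genes. It was at 23.5, 23.2, and 25.5 CPM in *Ebf2*+/+ IWAT and at 10.9, 9.69, and 12.8 CPM in *Ebf2* E165X/+ IWAT. Each heterozygous library thus lay well under each wild-type library. The means were 24.1 ± 1.21 and 11.1 ± 1.58 CPM (SD, n = 3 mice), so that the heterozygous mean was 46.3% of the wild-type mean, a log2 fold change of −1.11 (SE 0.12). The counts behind these levels ran from 1210 to 3156, and leaving out each mouse in turn moved the log2 fold change only between −1.22 and −1.02.

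*Pank2* (ENSMUSG00000037514, chr2:131262495-131299188, plus strand), the kinase sent to mitochondria in humans, was the steadiest of the 7. It was at 55.0, 55.5, and 55.3 CPM in *Ebf2*+/+ IWAT and at 54.1, 53.5, and 53.6 CPM in *Ebf2* E165X/+ IWAT. The genotypes did not overlap, although the heterozygous mean was 97.2% of the wild-type mean and the log2 fold change of −0.04 was smaller than its SE of 0.058. Of the 50-base stretches of its longest coding transcript, 25.5% also occur in *Rnf24*, which overlaps it on the opposite strand, or in *Gm14233* on the same strand. Whether the counting used strand is not given in the sources used here, so part of its counts may be shared with those genes.

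*Pank3* (ENSMUSG00000018846, chr11:35769484-35791285, plus strand), a cytosolic kinase, had the most counts of the family. It was at 688, 648, and 635 CPM in *Ebf2*+/+ IWAT and at 776, 591, and 470 CPM in *Ebf2* E165X/+ IWAT. The heterozygous libraries lay on both sides of the wild-type ones and were spread far wider, with means of 657 ± 27.7 and 613 ± 154 CPM. The log2 fold change of −0.10 (SE 0.19) turned to 0.06 without the third heterozygous mouse and was −0.31 without the first.

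*Pank4* (ENSMUSG00000029056, chr4:154964123-154980938, plus strand) was at 20.6, 27.0, and 22.3 CPM in *Ebf2*+/+ IWAT and at 24.0, 24.0, and 26.5 CPM in *Ebf2* E165X/+ IWAT. The genotypes overlapped, and the log2 fold change of 0.09 (SE 0.11) was −0.0038 without the first and 0.20 without the second wild-type mouse.

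**Figure D1:**
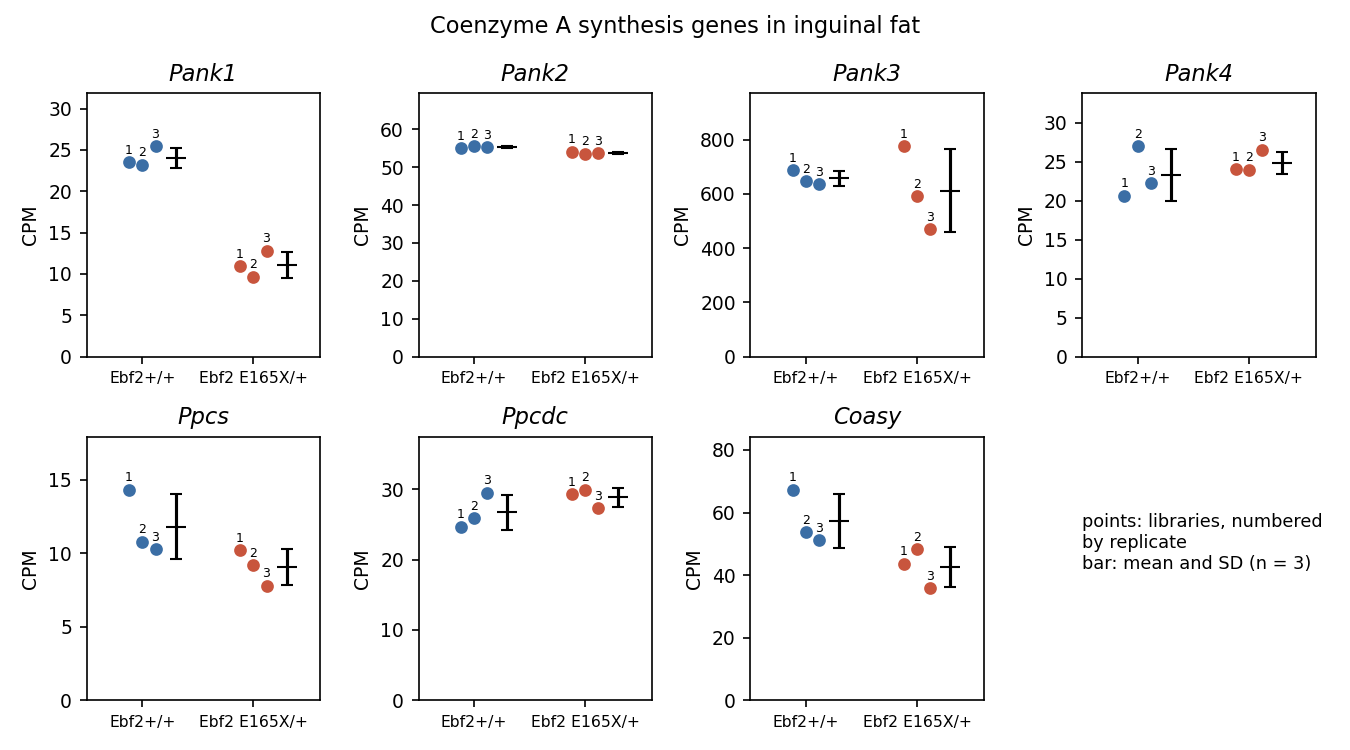
CPM of the 7 genes of coenzyme A synthesis, 1 panel per gene with its own vertical axis from 0. Points are libraries numbered by replicate, *Ebf2*+/+ in blue and *Ebf2* E165X/+ in red, and bars are the mean and SD of 3 mice. *Pank1* shows the widest relative gap between the genotypes (24.1 against 11.1 CPM), *Pank2* is level in all 6 libraries, and *Pank3* is spread from 470 to 776 CPM within the heterozygous mice.

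Among the later enzymes, *Coasy* (ENSMUSG00000001755, chr11:101082565-101086619, plus strand), which completes the synthesis, was at 67.3, 53.7, and 51.1 CPM in *Ebf2*+/+ IWAT and at 43.7, 48.2, and 35.8 CPM in *Ebf2* E165X/+ IWAT. The ranges did not overlap, but the highest heterozygous library came close to the lowest wild-type one. The means were 57.4 ± 8.71 and 42.6 ± 6.27 CPM, so that the heterozygous mean was 74.2% of the wild-type mean, a log2 fold change of −0.43 (SE 0.14). The log2 fold change was −0.32 without the first wild-type mouse and −0.32 without the third heterozygous one.

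*Ppcs* (ENSMUSG00000028636, chr4:119418530-119422420, minus strand), the synthetase, was at 14.3, 10.8, and 10.3 CPM in *Ebf2*+/+ IWAT and at 10.2, 9.19, and 7.79 CPM in *Ebf2* E165X/+ IWAT. All heterozygous values were lower, but the nearest libraries of the genotypes were almost level. The log2 fold change of −0.38 (SE 0.17) was −0.23 without the first wild-type mouse, the library with the most *Ppcs*.

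*Ppcdc* (ENSMUSG00000063849, chr9:57385095-57440124, minus strand), the decarboxylase between these steps, did not follow them. It was at 24.7, 25.9, and 29.6 CPM in *Ebf2*+/+ IWAT and at 29.3, 30.0, and 27.3 CPM in *Ebf2* E165X/+ IWAT. The genotypes overlapped, with a log2 fold change of 0.11 (SE 0.090), which was 0.043 without the first wild-type mouse.

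Of the 7 genes, 5 were lower and 2 higher on average in *Ebf2* E165X/+ mice, with a median log2 fold change of −0.10, or −0.039 without the third heterozygous mouse. Over all 32664 genes tested, 47.9% were lower and the median was 0.014. *Pank1*, *Pank2*, *Ppcs*, and *Coasy*, 4 of 7, were lower without overlap between the genotypes, beside 5.75% of all genes tested (5.09% were higher without overlap). At an adjusted P value under 0.05, edgeR called 0 of the 7 genes, beside 0.00918% of all genes tested (3 genes). At an unadjusted P value under 0.05 it counted 2 of 7, *Pank1* and *Coasy*, beside 4.77% of all genes in either direction, 3.09% lower and 1.68% higher. DESeq2 called 1 of 7, *Pank1*, at an adjusted P value under 0.05, beside 1.18% of the 16078 genes it kept. Nothing is read from these counts, since the same comparison led to the choice of the genes.

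The kinase message was set against itself within each library, where the scaling of libraries cancels. *Pank1* took 3.07%, 3.20%, and 3.56% of the summed *Pank1*, *Pank2*, and *Pank3* counts in *Ebf2*+/+ IWAT and 1.30%, 1.48%, and 2.39% in *Ebf2* E165X/+ IWAT. The *Pank1* share was lower in each heterozygous mouse than in any wild-type mouse, with means of 3.28% ± 0.253 and 1.72% ± 0.583. *Pank2* took 7.18%, 7.64%, and 7.73% in *Ebf2*+/+ and 6.43%, 8.18%, and 9.99% in *Ebf2* E165X/+ IWAT, so the genotypes overlapped. *Pank3* made up the rest, from 87.6% to 92.3%. The mouse with the smallest *Pank3* share, the third heterozygous one, had the highest shares of *Pank1* and *Pank2* in its group. By definition, a smaller *Pank3* share leaves a larger one for *Pank1* and *Pank2* together. The log2 CPM of *Pank1* minus that of *Pank2* was −1.22, −1.26, and −1.12 in the wild-type and −2.31, −2.46, and −2.06 in the heterozygous libraries, without overlap. The kinases can be told apart by their reads, because no 50-base stretch of 1 kinase transcript occurs in another, and their aligned coding sequences are identical at 71.5% (*Pank1* and *Pank2*), 71.9% (*Pank1* and *Pank3*), and 73.8% (*Pank2* and *Pank3*) of bases.

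**Figure D2:**
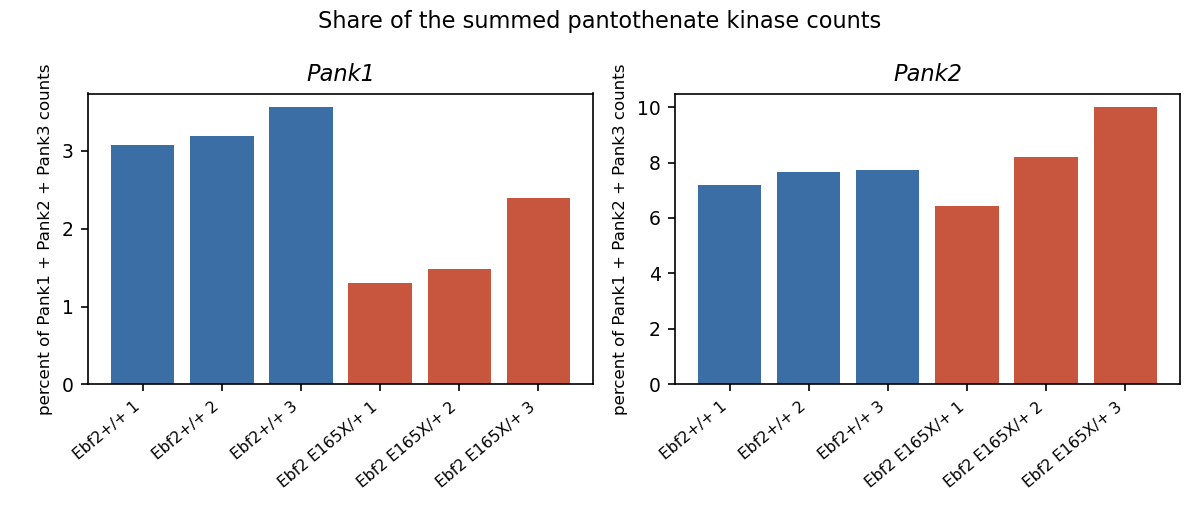
Share of *Pank1* (left) and *Pank2* (right) in the summed counts of *Pank1*, *Pank2*, and *Pank3*, in percent, with 1 bar per library. The *Pank1* share is 3.07% to 3.56% in the 3 *Ebf2*+/+ libraries (blue) and 1.30% to 2.39% in the 3 *Ebf2* E165X/+ libraries (red), while the *Pank2* share overlaps between the genotypes.

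Levels were compared between genes as CPM per kilobase of the longest protein-coding transcript. In *Ebf2*+/+ IWAT the levels were 89.1 for *Pank3*, 24.0 for *Coasy*, 13.0 for *Pank2*, 9.74 for *Ppcdc*, 8.61 for *Pank4*, 8.17 for *Ppcs*, and 3.25 for *Pank1* (CPM per kilobase, means of 3 mice). Over the 6 libraries, the ranges of *Ppcdc* and *Pank4* overlapped, as did those of *Pank4* and *Ppcs*, and the other neighbours in this order were apart. The order depends on the transcript chosen. With the shortest protein-coding transcript of each gene, the levels were 99.1 for *Pank2*, 89.1 for *Pank3*, 84.1 for *Ppcdc*, 26.8 for *Coasy*, 12.4 for *Ppcs*, 10.3 for *Pank1*, and 9.29 for *Pank4* (CPM per kilobase), so that *Pank2* and *Ppcdc*, which have short transcripts of 558 and 318 bases, moved to or near the top. The study's methods name a 3′ mRNA protocol, in which counts do not grow with length, while the sample labels name another kit. Without division by length the wild-type order was *Pank3*, *Coasy*, *Pank2*, *Ppcdc*, *Pank1*, *Pank4*, and *Ppcs*.

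The promoters of 6 of the 7 genes, all but *Coasy*, matched RefSeq windows (250 bases before to 50 after the start, 9 windows in all, GRCm38.p6) and were searched on both strands. CCCNNGGG, a form of the motif bound by EBF factors, was in 0 of the 9 windows and in 13.7% of all 32817 windows. AGGTCA, an element bound by many nuclear receptors, was in 16.3% of all windows and was found 224 bases before the start of *Ppcs* and 27 bases after that of *Ppcdc*. TCAAGGTCA, an extended form that contains AGGTCA, and CACGTG, which are in 0.424% and 7.15% of all windows, were not found in the 9.

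Genes around the pathway were then described by role. Their lists were chosen for what the genes do, but with earlier results of these data known, so nothing is read from the counts below. Of 36 such genes with counts, 31 were lower and 5 higher on average in *Ebf2* E165X/+ IWAT, with a median log2 fold change of −0.22 beside 0.014 over all genes tested. Without overlap, 19 were lower and 0 higher, beside 5.75% and 5.09% of all genes tested. At an unadjusted P value under 0.05, edgeR counted 16 lower and 0 higher, beside 3.09% and 1.68%. All 36 had a mean of at least 1 CPM. Of the 14966 genes with such a mean, 7.14% were lower and 7.07% higher without overlap. At the unadjusted threshold, 723 of them were lower and 273 higher. Leaving out the first wild-type or the third heterozygous mouse gave 11 and 13 lower genes at that threshold (2.21% and 3.48% of all genes tested), and 19 and 21 lower without overlap, where 9.14% and 10.5% of all genes tested were then lower without overlap. Adjusted over all genes, edgeR called 0 of the 36 and DESeq2 called 3, all lower (*Nudt7*, *Ndufab1*, and *Acacb*), beside 1.07% of the genes it kept that were lower. The first wild-type library stood apart in this pathway, with the most *Acly*, *Acss2*, *Acaca*, and *Fasn* of all, and its main effects on the values are given below.

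Supply and breakdown of coenzyme A were covered by 8 genes. Of these, 6 were lower and 2 higher, with a median of −0.075, and 1 was lower at an unadjusted P value under 0.05 (3.09% of all genes tested). Without the third heterozygous mouse the median was 0.0084 and 2 genes were lower at that threshold (3.48% of all genes tested), and without the first wild-type mouse the median was −0.14. The gene that passed this threshold in the fit of all 6 libraries was *Nudt7*, a hydrolase that cleaves coenzyme A in peroxisomes, at 69.2, 45.8, and 49.7 CPM in *Ebf2*+/+ and 37.0, 38.1, and 32.5 CPM in *Ebf2* E165X/+ IWAT. The genotypes did not overlap (log2 fold change −0.62, SE 0.16, adjusted P = 0.783 by edgeR and 0.0272 by DESeq2). The hydrolases *Nudt8* of mitochondria (−0.21, SE 0.13) and *Nudt19* of peroxisomes (−0.16, SE 0.10), and *Enpp1*, an ectoenzyme that can cleave coenzyme A outside the cell (0.27, SE 0.14), did not pass. Without the first wild-type mouse *Nudt7* was at −0.43 and *Enpp1* at 0.15, and *Nudt19* ran from −0.27 without the third to −0.095 without the first heterozygous mouse (log2 fold change). *Slc5a6*, the transporter that takes up pantothenate, was at 25.2 to 27.8 CPM in *Ebf2*+/+ and 23.3 to 36.4 CPM in *Ebf2* E165X/+ IWAT, with overlap, and was named after its values were seen.

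All 4 carriers of coenzyme A or acetyl-CoA across membranes were lower on average, with a median of −0.16, or −0.10 without the third heterozygous mouse. At an unadjusted P value under 0.05, 1 was lower (3.09% of all genes tested), the same gene that was lower without overlap (5.75%). *Slc25a42*, which brings coenzyme A into mitochondria, was at 24.3, 29.6, and 35.5 CPM in *Ebf2*+/+ IWAT and at 21.3, 21.4, and 21.8 CPM in *Ebf2* E165X/+ IWAT. The heterozygous libraries were nearly equal and all below the wild-type ones (log2 fold change −0.47, SE 0.13, adjusted P = 0.783 by edgeR). The other mitochondrial carrier *Slc25a16* (−0.18, SE 0.080), the peroxisomal *Slc25a17* (−0.14, SE 0.11), and the acetyl-CoA transporter *Slc33a1* (−0.05, SE 0.079) overlapped between the genotypes. Without the first wild-type mouse *Slc25a17* was at −0.069 and *Slc33a1* at −0.0068, and without the third heterozygous mouse *Slc25a17* was at −0.047 (log2 fold change).

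Coenzyme A also donates the phosphopantetheine arm of acyl carrier proteins. Of 6 genes for the transferase and for proteins with such an arm, 4 were lower and 2 higher, with a median of −0.28, and 3 were lower at an unadjusted P value under 0.05 (3.09% of all genes tested). *Ndufab1*, the mitochondrial acyl carrier protein, was at 119, 110, and 103 CPM in *Ebf2*+/+ and at 75.8, 75.3, and 93.9 CPM in *Ebf2* E165X/+ IWAT. It did not overlap (log2 fold change −0.44, SE 0.11, adjusted P = 0.783 by edgeR and 0.0414 by DESeq2). *Fasn*, the cytosolic fatty acid synthase, did overlap, at 12648, 5101, and 6660 CPM against 3701, 5554, and 3454 CPM. Its log2 fold change was −0.94 (SE 0.39), and −0.49 without the first wild-type mouse. The folate enzymes *Aldh1l1* (−0.47, SE 0.17) and *Aldh1l2* (0.15, SE 0.16) lay on different sides of 0. *Aldh1l1* was at −0.32 without the first wild-type mouse, and *Aldh1l2* ran from 0.037 without the third to 0.27 without the second heterozygous mouse. Without the first wild-type or the third heterozygous mouse, 1 of the 6 genes was lower at an unadjusted P value under 0.05 (2.21% and 3.48% of all genes tested).

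The pathway that builds fatty acids on *Ndufab1* in mitochondria, together with the attachment of lipoate, was covered by 8 genes. All 8 were lower on average, 7 of them without overlap (5.75% of all genes tested), with a median of −0.20. *Mecr*, the enoyl reductase, had a log2 fold change of −0.53 (SE 0.15). *Lipt1*, a lipoyl transferase, was at −0.41 (SE 0.17) on the same scale. The reductase subunit *Cbr4* was at −0.31 (SE 0.085) and the malonyl transferase *Mcat* at −0.23 (SE 0.10). Without the first wild-type mouse *Mecr* was at −0.41, *Lipt1* at −0.28, *Cbr4* at −0.28, and *Mcat* at −0.15. None of the 8 was called by edgeR or DESeq2, while 4 were lower at an unadjusted P value under 0.05 by edgeR (3.09% of all genes tested), 3 without the first wild-type (2.21%) and 2 without the third heterozygous mouse (3.48%).

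Enzymes that make or use acetyl-CoA and malonyl-CoA showed the largest median of these lists, −0.56, with 9 of 10 lower, 7 of them without overlap, and 7 lower at an unadjusted P value under 0.05 (5.75% and 3.09% of all genes tested). *Acacb*, the acetyl-CoA carboxylase of the mitochondrial surface, was at 371, 252, and 309 CPM in *Ebf2*+/+ and at 142, 134, and 176 CPM in *Ebf2* E165X/+ IWAT. The genotypes were well apart, with a log2 fold change of −1.05 (SE 0.17, adjusted P = 0.353 by edgeR and 3.72e-07 by DESeq2). *Acly*, which makes cytosolic acetyl-CoA from citrate, was at 3690, 950, and 1433 CPM against 543, 1119, and 846 CPM, with overlap. Its log2 fold change of −1.28 (SE 0.51) was −0.53 without the first wild-type mouse. In the same way, the log2 fold changes of *Acss2*, which makes acetyl-CoA from acetate (−1.05, SE 0.37), and of the cytosolic carboxylase *Acaca* (−0.74, SE 0.32) were −0.45 and −0.35 without that mouse. The median of the 10 genes was then −0.33, and 5 were lower at an unadjusted P value under 0.05 (2.21% of all genes tested).

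**Figure D3:**
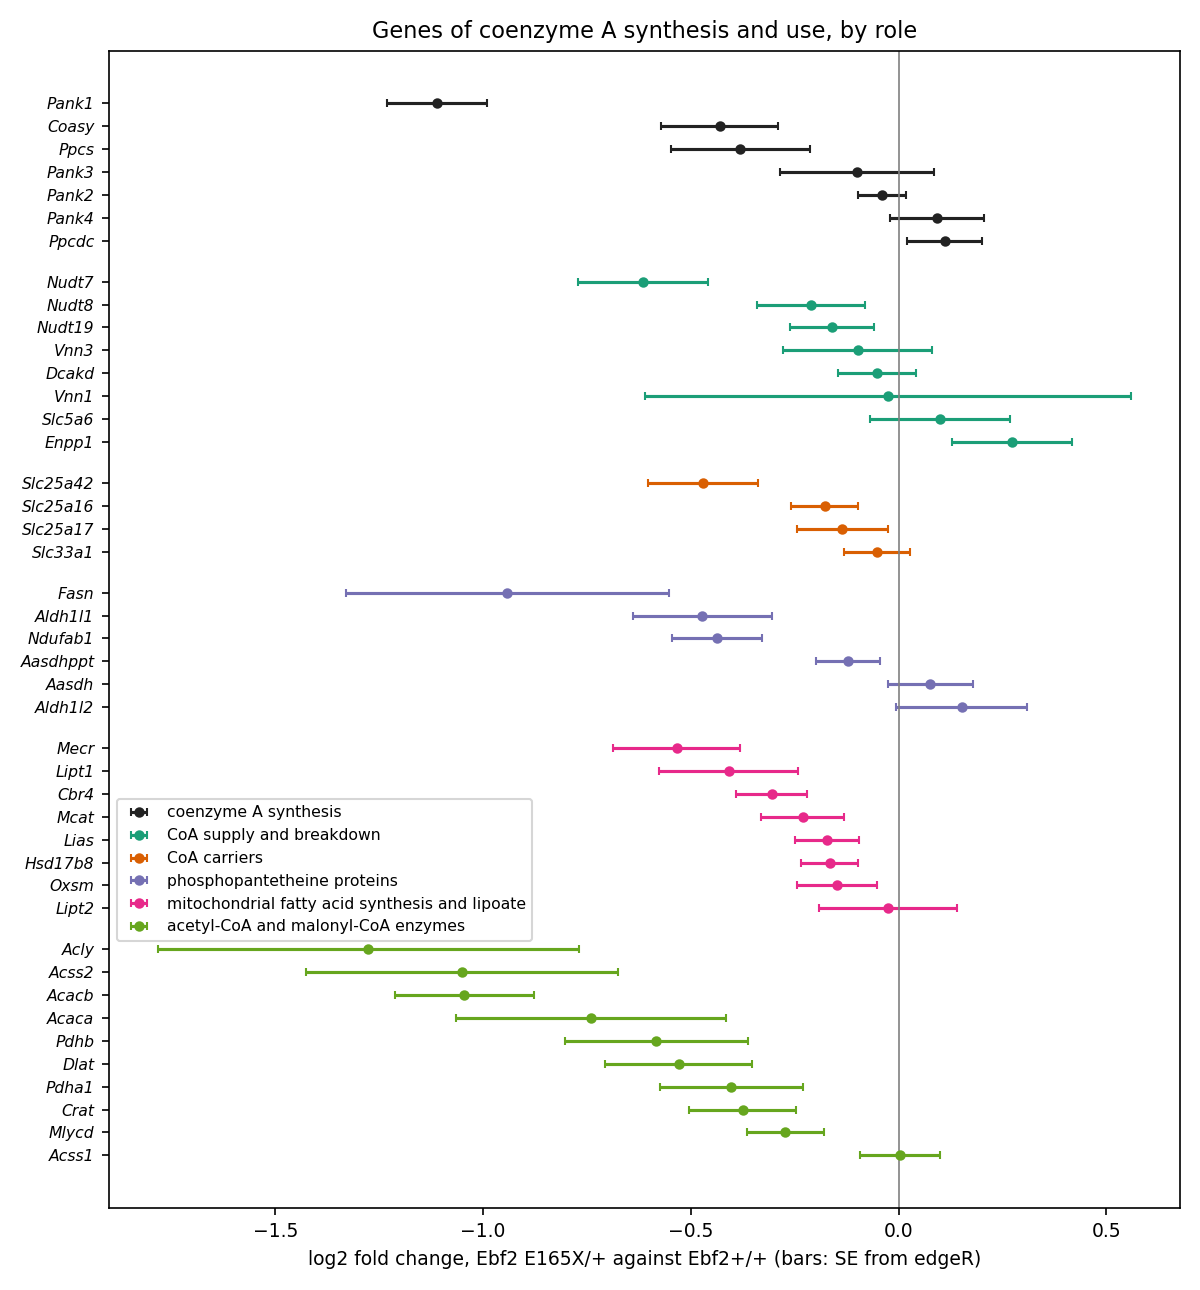
Log2 fold change of *Ebf2* E165X/+ against *Ebf2*+/+ IWAT for the 7 genes of coenzyme A synthesis (top, black) and for 36 genes around the pathway, grouped and coloured by role. Points are edgeR estimates and bars their SE from 3 mice per genotype. *Pank1* (−1.11) lies apart from the other synthesis genes (−0.43 to 0.11), and *Acly*, *Acss2*, *Acaca*, and *Fasn* have wide bars.

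For *Pank1* and *Coasy*, the members with the largest differences, the genes with the most similar profile were named. Likeness was the root mean square difference of log2 CPM, centred on each gene's mean over the 6 libraries, among 14965 genes with a mean of at least 1 CPM. It is a description over 6 points that share the genotype difference. The nearest to *Pank1* was *Acaa2*, the last thiolase of mitochondrial fatty acid oxidation (0.145), at 199, 239, and 199 CPM against 108, 98.4, and 119 CPM. *Acacb* (0.166), the mitochondrial ribosomal RNA *mt-Rnr2* (0.170), *Gm26782* (0.170), and *Acadvl*, the very long chain acyl-CoA dehydrogenase (0.199), followed. In each of these 5, as in *Pank1*, all heterozygous libraries were lower, with log2 fold changes from −1.05 to −0.79.

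The nearest genes to *Coasy* were closer to it. They were *Taldo1*, transaldolase of the pentose phosphate pathway (0.0373), the magnesium handling protein *Cnnm2* (0.0407), *Aldh1l1* (0.0497), *Med12l* (0.0513), and *Aspa*, which frees acetate from N-acetylaspartate (0.0525). *Coasy* and all 5 of these genes were highest in the first wild-type and lowest in the third heterozygous library.

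**Figure D4:**
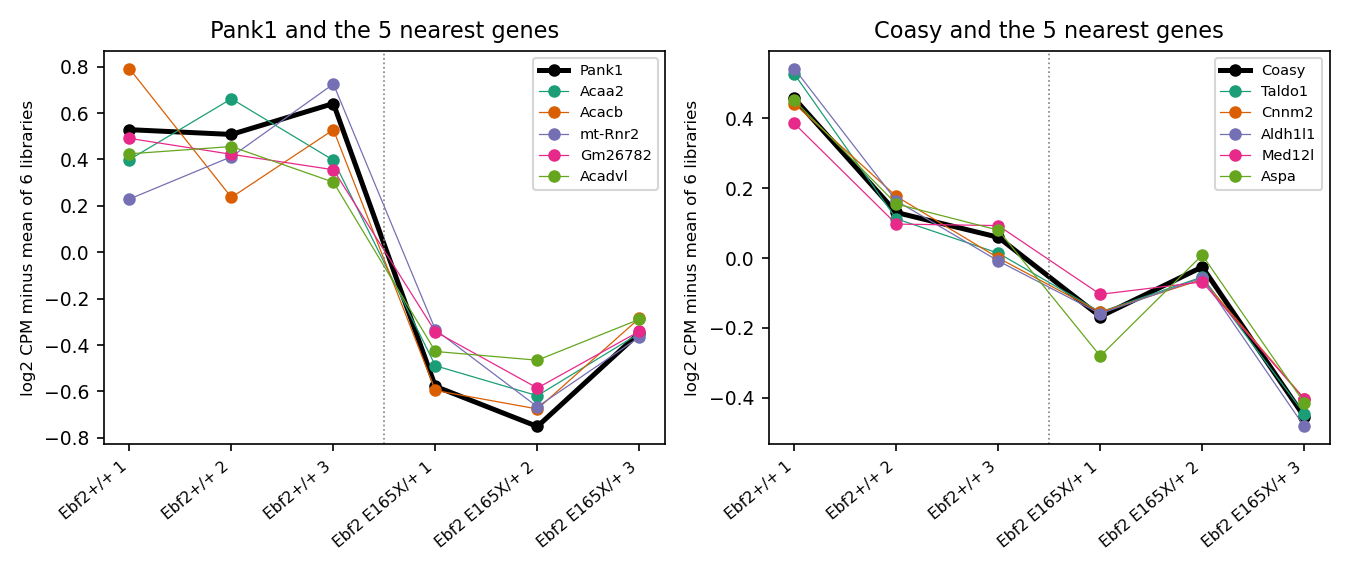
Log2 CPM minus the mean of 6 libraries for *Pank1* (left) and *Coasy* (right), in black, with the 5 genes nearest to each in colour. Thin lines join the points of 1 gene and the dotted line divides *Ebf2*+/+ from *Ebf2* E165X/+ libraries. *Pank1* is split by genotype with a small spread inside each, while *Coasy* and its neighbours also vary within the genotypes, from the first wild-type to the third heterozygous library.

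Markers of the cell types that the depot can hold were read beside these values. In bulk tissue, fewer cells of a type and less RNA per cell cannot be told apart. White adipocyte markers were high in all libraries, in accord with the label, with summed levels of 16963, 17409, and 14881 CPM in *Ebf2*+/+ and 15925, 13797, and 10018 CPM in *Ebf2* E165X/+ IWAT. All 7 were lower on average, *Lpl* was the most abundant, and their mean log2 CPM differed by −0.33, or by −0.16 without the third heterozygous library. *Adipoq* was at 1190, 1303, and 1199 CPM against 1172, 1054, and 820 CPM, and *Plin1* at 1101, 1143, and 934 CPM against 934, 1020, and 693 CPM. The third heterozygous library had the least of the white adipocyte markers and the least *Pank3*, *Ppcs*, and *Coasy*.

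Of the brown and beige adipocyte markers, *Cidea* and *Ucp1* were apart between the genotypes like *Pank1*, and the other 5 overlapped. Of all genes tested, 5.75% were lower without overlap. The summed levels were 153, 208, and 204 CPM in *Ebf2*+/+ and 37.8, 41.2, and 86.2 CPM in *Ebf2* E165X/+ IWAT, and all 7 were lower on average. The differences were uneven, with log2 fold changes from −5.83 for *Ucp1* to −0.11 and a median of −0.90. *Cox7a1* and *Cox8b*, subunits of cytochrome oxidase that muscle also makes, were at 21.7 and 32.8 CPM in the third heterozygous library. In the other heterozygous libraries they were at 2.46 to 17.7 CPM. The third heterozygous library also had the most skeletal muscle markers, and the part of muscle in these values was not tested. *Cidea*, the most abundant and a lipid droplet protein, was at 82.4, 103, and 106 CPM against 7.97, 9.61, and 13.2 CPM, and edgeR called it (log2 fold change −3.24, SE 0.20, adjusted P = 0.00462). *Ucp1*, the uncoupling protein of thermogenic fat, was at 10.8, 21.3, and 33.0 CPM against 0.259, 0.264, and 0.617 CPM. The part of these markers in the *Pank1* difference was not tested.

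Skeletal muscle markers stood out in 1 library. The 8 genes summed to 1711, 6871, and 2625 CPM in *Ebf2*+/+ and to 2921, 673, and 39450 CPM in *Ebf2* E165X/+ IWAT, with *Myh4* the most abundant. Among the heterozygous mice *Pank1* was highest in the library with the most of these markers, and among the wild-type mice it was lowest there. Its log2 fold change was −1.22 without the third heterozygous library. The part of muscle in the *Pank1* difference was not tested. The 4 synthesis genes lower without overlap stay so by construction when a library is left out. The share of all genes tested was then 10.5% without the third heterozygous library and 9.14% without the first wild-type one.

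The other lists given here overlapped between the genotypes in their summed levels, apart from B cells. B cell markers summed to 251, 402, and 410 CPM against 420, 480, and 447 CPM, with 4 of 4 higher on average and *Ms4a1* the most abundant. Their mean log2 CPM difference of 0.37 was 0.14 without the first wild-type mouse. For the T cell markers this difference was 0.22, and 0.085 without the first wild-type mouse. T cell markers were higher in 5 of 5 (172 to 228 against 223 to 259 CPM, *Cd4* the most abundant), macrophage markers in 4 of 4 (434 to 643 against 559 to 606 CPM, *Mrc1*), and adipocyte progenitor markers in 5 of 6 (1345 to 1688 against 1621 to 1854 CPM, *Dcn*). Endothelial markers were lower in 3 of 4 (918 to 1009 against 739 to 949 CPM, *Pecam1*). Erythroid markers were higher in 5 of 5 (2135 to 3315 against 2002 to 4550 CPM, *Hbb-bs*). Their mean log2 CPM difference of 0.065 was −0.28 without the first heterozygous and −0.13 without the second wild-type mouse. Without the second wild-type mouse, the mean difference of the macrophage markers was −0.043 and that of the progenitor markers −0.010. That of the epithelial markers was −0.59, and 0.21 without the second heterozygous mouse. Epithelial markers were low and uneven, from 1.55 to 69.5 CPM over all libraries, with *Krt5* the most abundant and 3 of 5 lower. No marker on these lists was at 0 in all libraries, and the part of these cell types in the values of the synthesis genes was not tested.

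**Figure D5:**
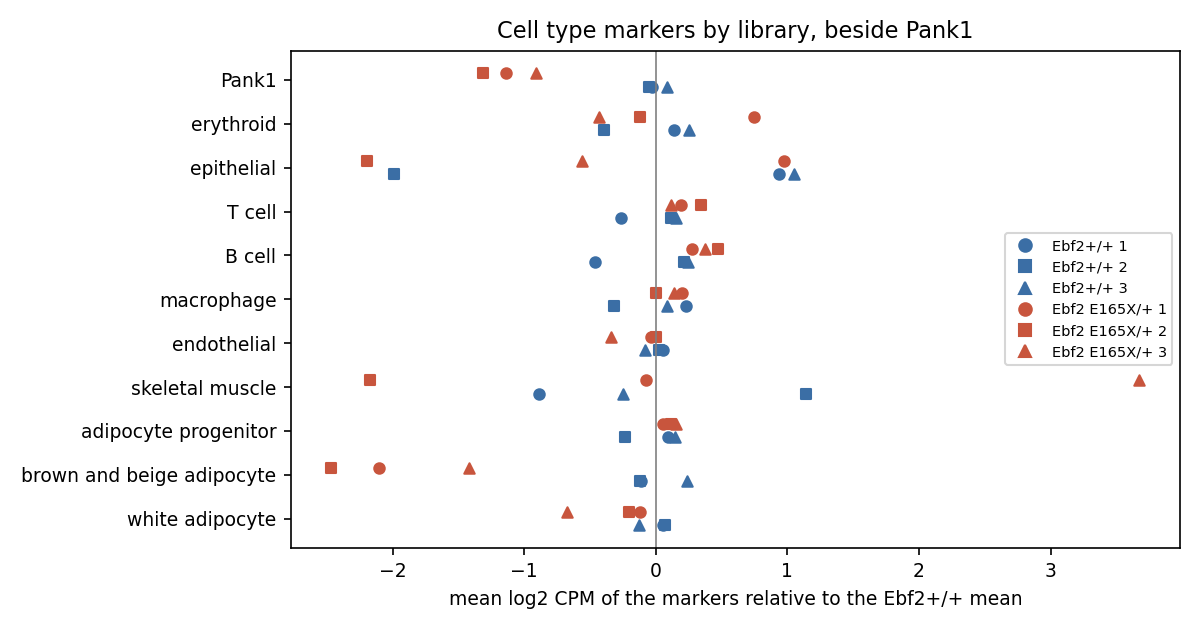
Mean log2 CPM of each list of cell type markers per library, relative to the *Ebf2*+/+ mean, with *Pank1* in the top line. Blue is *Ebf2*+/+ and red *Ebf2* E165X/+, and the shape gives the replicate. *Pank1* and the mean of the brown and beige adipocyte markers are lower in all 3 *Ebf2* E165X/+ libraries, and the skeletal muscle markers are far higher in the third *Ebf2* E165X/+ library than in any other.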

How the data were processed

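IWAT of 3 *Ebf2*+/+ and 3 *Ebf2* E165X/+ mice was profiled by RNA-seq. The authors deposited expected counts per gene, 1 column per library and without normalization. Each of the 332946 values was whole, so rounding left them as they were. The submitters' processing notes name cutadapt 4.8, STAR 2.7.8a, RSEM 1.3.3, and GRCm38. The study's methods name a 3′ mRNA kit and ENSEMBL 109, and the labels a kit of another maker.

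The 32664 genes with a count of 1 or more in some library were fitted with edgeR 4.0.16 in R 4.3.3 (TMM, glmQLFit, glmQLFTest, genotype as the only term), with Benjamini-Hochberg adjustment over all genes tested. A call is an adjusted P value under 0.05. DESeq2 1.42.0, limma-voom (limma 3.58.1), other filters and scalings, a block for the replicate number, and each mouse left out were alternatives. The tests were tried on simulated counts, where the share of false calls was above the threshold with edgeR, DESeq2, and limma-voom, and largest with DESeq2. The smallest library total was 106820505. P values set the genotype difference against the variation between mice, which the fits estimate with information shared across genes.

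Genes and lists were chosen with earlier results of these data known. Named are the synthesis genes, *Ebf2*, from each pathway list the called genes or the 4 largest differences with a mean of at least 1 CPM, from the marker lists the most abundant gene and some of the first on the list, and for *Pank1* and *Coasy* the 5 nearest genes. DESeq2 calls, *Slc5a6*, *Cox7a1*, and *Cox8b* were named after their values were seen. *Hsd17b8* is listed as *H2-Ke6*. Lists were coenzyme A supply and breakdown, carriers, phosphopantetheine proteins, mitochondrial fatty acid synthesis with lipoate, acetyl-CoA and malonyl-CoA enzymes, intronic microRNAs, and the cell type markers, of which 1 list is not reported here. Positions and lengths come from GENCODE M21 and sequences from RefSeq. Plots were drawn with matplotlib 3.10.9.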

Additional observations from a re-analysis of the deposited data

How the results depend on the processing

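edgeR called 3 genes of 32664, DESeq2 189, and DESeq2 without independent filtering 157, while leaving out single mice gave 1 (without the second wild-type mouse) to 11 (without the third heterozygous mouse). Of the synthesis genes DESeq2 called 1, with and without filtering, and leave-one-out fits 0 to 1. This was *Pank1*, also called by edgeR without the third heterozygous mouse. DESeq2 called 1 gene each of coenzyme A supply, phosphopantetheine proteins, and acetyl-CoA and malonyl-CoA enzymes, the last also without filtering (1), where edgeR called 0. The cause of these differences was not tested. Deviations of same-numbered mice from their group means had correlations of 0.153, −0.278, and −0.162 over 18905 genes. Those of differently numbered mice ran from −0.317 to 0.395. With 3 mice per group, centred within each group, such correlations cannot show whether the numbers pair mice. The replicate block gave 2 calls, 0 of them synthesis genes. *Pank3* and *Pank4* each changed sign in 1 of 14 alternatives, and no other synthesis gene did. The counts of lower genes without the first wild-type or the third heterozygous mouse were added after the data were seen.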
